A study of Sus scrofa with 2 samples.

Results

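E3 ubiquitin ligases were compared in brain and liver RNA from the Rongchang pig, a breed kept in China, with 1 sequenced library for each tissue. The ligases were the genes whose product description in the deposited table holds the phrase "E3 ubiquitin-protein ligase", and there were 88 of them among 21653 gene names. No treatment is labelled. Age, sex, the part of the brain, pooling of animals and whether 1 animal gave both tissues are not in the labels. Both library titles carry the same lane and barcode label. All 88 genes stand in the table under provisional locus numbers and have products that end in "-like", so each is called here by the ligase it is said to resemble. They fall under 72 product names, and 12 of these names are held by more than 1 gene. Ligases listed under an ordinary gene symbol, among them 7 MARCH genes whose symbols appear as dates, have other product wordings and are not in the set. They are described further on for comparison.

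Ubiquitin is attached to proteins by a relay of enzymes. An E1 enzyme activates it, an E2 enzyme carries it, and an E3 ligase picks the protein to be marked. RING and U-box ligases bring the loaded E2 and the target together, whereas HECT and RBR (RING-between-RING) ligases first take ubiquitin onto a cysteine of their own. A tagged protein may be sent to the proteasome, taken in from the cell surface or altered in its activity. In neurons, ligases shape axons and synapses, and loss of the HECT ligase UBE3A in the brain causes Angelman syndrome. In the endoplasmic reticulum, ligases mark misfolded proteins for breakdown, a route that matters in liver, which secretes much protein.

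There were 23796843 counts for brain and 31724498 for liver. They were scaled to counts per 1000000 (CPM) with TMM factors, so that 1 CPM equals 34.9 brain counts or 21.6 liver counts. The difference is the log2 ratio of brain over liver scaled CPM, after 1 is added to each CPM. The added 1 makes the ratio of scarce genes too small. Genes that reached 1 CPM in either library were called when this ratio was 4-fold or larger, a log2 ratio of 2 (brain) or -2 (liver). Folds are ratios of scaled CPM without the pseudocount, and their 95% intervals cover counting error only. With 1 library per tissue there is no replicate check and no test. The 5 neuronal markers summed to 4618 CPM in brain and 11.7 in liver, and the 5 hepatocyte markers to 303 in brain and 375886 in liver. The 3 macrophage markers (CD5L, MRC1 and CD163), listed for Kupffer cells of the liver and macrophages, summed to 9.10 CPM in brain and 1384 in liver.

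Most of the ligases lay close to equal levels in the 2 libraries, and a few stood far from them. Of the 88, 69 reached 1 CPM in either library and 19 did not. Of these 69, 5 were called higher in brain, the genes like TRIM9, HECW1, MARCH1, LNX and MARCH11, and 2 in liver, those like RNF128 and RNF125. The share was 7.25% in brain against 14.6% of all 15706 genes that passed, and 2.90% in liver against 11.3%, so both shares lay below the background. With plain library size 9 were called in brain, against 24.2% of all genes, and 2 in liver, against 6.02%. At a 2-fold limit, 10 lay on the brain side (27.6% of all genes) and 12 on the liver side (24.4%), and at 8-fold 3 (8.54%) and 1 (5.70%). Within 2-fold on the pseudocount scale were 47 of the 69 ligases (68.1%), against 48.0% of all genes that passed. In bulk tissue, fewer cells of a type and less RNA per cell cannot be told apart, which holds for every difference given here.

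The 88 ligases together took 0.248% of all brain counts (95% Wilson interval 0.246 to 0.250) and 0.157% of all liver counts (0.155 to 0.158). Without TRIM9 and RNF128 these shares were 0.209% and 0.105%. All of these are shares of unscaled totals, as plain library size uses them, and their direction depends on the scaling. With TMM, 59003 brain and 49701 liver counts stood at 34.95 and 21.6 counts per CPM, so the summed CPM was higher in liver. The same held without TRIM9 and RNF128. The median log2 ratio of the 88 ligases was 0.03, beside 0.04 over all genes. Both medians moved with the scaling. Plain library size put them at 0.54 and 0.51, since it shifts well-measured genes by 1.11 toward brain on the log2 scale. Of the 69 ligases at 1 CPM or more, 33 lay above 0 and 14 below 0 with each of the 4 scalings run. The share above 0 was 47.8%, against 50.1% of all genes that passed. The other 22 ligases lay below 0 with TMM and above 0 with plain library size. Median of ratios and TMM without the 50 highest genes shifted ratios by only -0.010 and -0.003 from TMM, and plain library size shifts toward brain. A ratio well above 0 with TMM is thus above 0 with all 4 scalings, which adds no further support on the brain side. Setting genes with 0 counts in a library to a floor of 3 counts gave medians of 0.00 for the ligases and -0.01 for all genes. Among the ligases nearest to the 4-fold limit, MARCH11 (2.42) lay inside it on the brain side and the ligase like C12orf51 (1.79) outside. On the liver side RNF125 (-2.92) lay inside and DTX3L (-1.99) just outside.

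**Figure D1:**
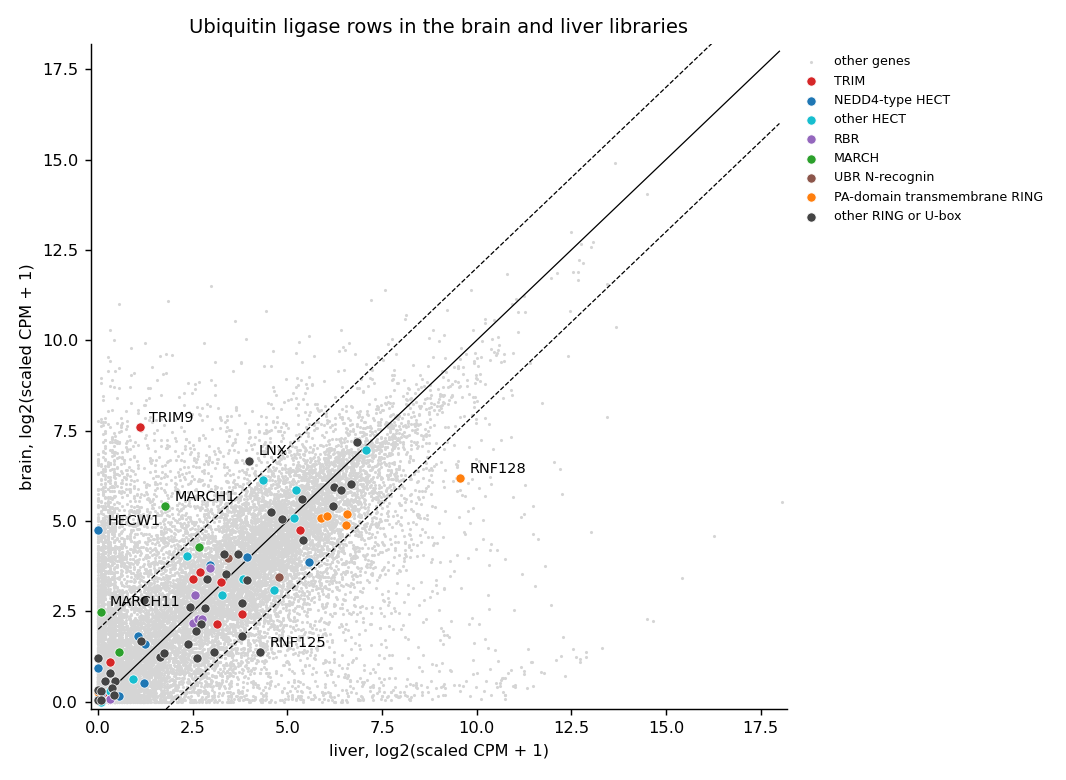
Scaled CPM of every gene in liver (x axis) and brain (y axis), both as log2(CPM + 1), with 1 library per tissue. Coloured dots are the 88 ligases by class and grey dots the other genes. The solid line marks equal levels and the dashed lines 4-fold. Most ligases lie between the dashed lines, and the 5 named above the upper line and 2 below the lower line are those called.

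TRIM ligases carry a RING, B-boxes and a coiled coil. TRIM9, a ligase of neurons that binds the exocytosis protein SNAP25, had the highest log2 ratio of the whole set, 6.48. Its gene (LOC100153738) had 6689 counts in brain and 25 in liver, or 191 and 1.16 scaled CPM, a 165-fold difference (95% interval 112 to 256). It supplied 11.3% of the brain counts of the 88 ligases. The other TRIM genes of the set were much nearer to equality. TRIM37, whose loss in humans causes mulibrey nanism, had 11.0 CPM in brain against 5.42 in liver, with a log2 ratio of 0.91. The row under the symbol TRIM37, outside the set, had 5142 brain and 762 liver counts and passed the 4-fold limit (2.03). TRIM33, a regulator of SMAD signalling, was at 9.58 and 4.68 CPM (0.90). TRIM17 was at 1.14 and 0.231 CPM (0.80), and TRIM11 at 8.95 and 8.43 (0.08). TRIM68 leaned toward liver with every scaling run, at 4.35 brain and 13.0 liver CPM (-1.39, and -0.42 with plain library size). TRIM23, which also carries an ARF-type GTPase domain, was at 3.43 and 7.78 CPM (-0.99, and -0.06 with plain library size). TRIM41 was at 25.8 and 39.2 CPM, with a log2 ratio of -0.58 that became 0.49 with plain library size. A second gene described as TRIM23-like had 6 brain and 2 liver counts, too few to place.

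The HECT ligases of the NEDD4 type join a C2 domain, WW domains and a HECT domain. In this class HECW1, a ligase known mainly from neurons, separated the libraries most sharply. The HECW1-like gene LOC100737343 had 897 brain counts and 0 liver counts, 25.7 scaled CPM in brain, which is at least 185-fold higher against a floor of 3 liver counts. A second HECW1-like gene had 31 brain counts and 0 in liver, under 1 CPM, and was at least 6.38-fold higher. Its paralogue HECW2 had 12.7 CPM in brain against 6.76 in liver, a log2 ratio of 0.82. The row under the symbol HECW2, outside the set, had 1028 brain and 77 liver counts and passed the 4-fold limit (2.74). WWP2 lay on the liver side with every scaling run, at 13.4 brain and 46.8 liver CPM. That was a 3.49-fold difference (3.12 to 3.90), with a log2 ratio of -1.73, and -0.67 with plain library size. SMURF2 was at 0.429 and 1.30 CPM (-0.68), and SMURF1 had 6 brain counts and 1 liver count. The row under the symbol SMURF1, outside the set, had 72 brain and 41 liver counts.

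In all, 5 genes are described as NEDD4-like, and the wording does not show whether NEDD4 or its paralogue NEDD4L is meant. The best covered had 528 brain and 305 liver counts, 15.1 and 14.1 CPM, a 1.07-fold difference whose interval (0.927 to 1.24) includes equality. The next had 88 and 23 counts, with a log2 ratio of 0.77, and another 70 and 29 counts (0.36). By gene number the gene with 70 and 29 counts matched NEDD4, and the other NEDD4-like genes had no match. The remaining pair had at most 10 counts in either library. None of the 5 was called. The row under the symbol NEDD4L, outside the set, had 133 brain and 112 liver counts.

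The other HECT ligases include some very large proteins. HUWE1, a ligase of p53 and MCL1, had 4320 brain and 2885 liver counts, or 124 and 134 scaled CPM. It was 1.08-fold higher in liver (1.03 to 1.13) and its log2 ratio was -0.11, or 0.99 with plain library size. The ligases that leaned to brain were HECTD4 and HERC2. The gene described under C12orf51, an older name of HECTD4, had 69.3 CPM in brain against 19.3 in liver, a ratio of 3.59 (3.23 to 3.99). Both genes described as HERC2-like, a ligase of DNA repair, also leaned that way, at 57.0 against 36.5 CPM (0.63) and 15.4 against 4.12 CPM (1.68). HERC6, which interferon induces, had 7.50 CPM in brain against 24.1 in liver, 3.22-fold (2.77 to 3.75), with a log2 ratio of -1.56 that was -0.54 with plain library size. HECTD3 (-0.43) and HERC4 (-0.32) were at 0.59 and 0.66 with plain library size. The row under the symbol HECTD3, outside the set, had 1322 brain and 559 liver counts (0.53 with TMM). The 2 genes described as HECTD2-like stayed under 1 CPM.

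The RBR ligases of the set at 1 CPM or more lay within 2-fold on the pseudocount scale. ARIH1, which works with cullin ligases, had 6.72 CPM in brain against 4.91 in liver, a log2 ratio of 0.39. The 3 genes described as RNF216-like gave 0.75, -0.31 and -0.44. RNF144A was at 3.86 and 5.19 CPM (-0.35). The ratios below 0 here turned to 0.58, 0.48 and 0.56 with plain library size. A second RNF144A-like gene had 2 brain and 5 liver counts. The 9 RBR rows listed outside the set spread wider, with 5 of them within 2-fold. None was called with TMM, against 14.6% of all genes in brain and 11.3% in liver. With plain library size 2 were called in brain, against 24.2% of all genes. Among them RNF144B was at -1.84, RNF31, a subunit of the linear ubiquitin ligase, at -1.72 (-0.89 and -0.64 with plain library size), and RNF19B at 1.42.

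MARCH ligases are membrane proteins that remove other membrane proteins from the cell surface. All 4 MARCH genes of the set had log2 ratios above 0 with each of the 4 scalings run, against 50.1% of all genes that passed. For ratios well above 0 with TMM the other scalings add no further support. Their median was 2.02, beside 0.04 over all genes. MARCH1, which takes MHC class II off the surface of antigen-presenting cells, had 1442 brain and 52 liver counts in its better covered gene, LOC100518849. That is 41.3 and 2.41 scaled CPM, a 17.1-fold difference (13.0 to 23.0). The 3 macrophage markers above were lower in brain. No markers of microglia, the macrophages of the brain, were among those used. The part of either cell type in the result was not tested. A second MARCH1-like gene had 1.57 CPM in brain against 0.463 in liver (0.82). MARCH11 (LOC100521230) had 161 brain counts and 1 liver count, 4.61 and 0.0463 CPM. With so few liver counts its ratio of 99.5 is loosely bounded (17.6 to 3953). MARCH9 was at 18.4 and 5.37 CPM, 3.44-fold (2.81 to 4.22), below the 4-fold limit with TMM and beyond it with plain library size (2.59).

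**Figure D2:**
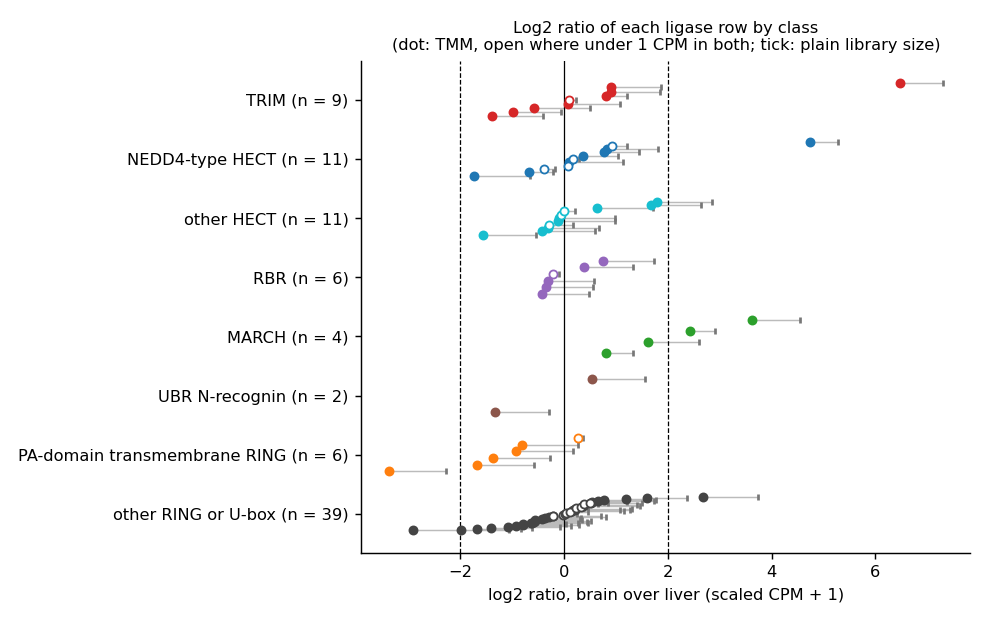
Log2 ratio of brain over liver for each of the 88 ligases, 1 dot per gene, in rows by class. Dots use TMM scaling and are open where a gene is under 1 CPM in both libraries, and grey ticks show plain library size. Dashed lines mark 4-fold. The 4 MARCH genes lie right of 0, and the 5 PA-domain genes at 1 CPM or more lie left of 0 with TMM, 3 of them also with plain library size.

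The transmembrane RING ligases with a protease-associated (PA) domain in their luminal part lay on the other side. Their 5 genes at 1 CPM or more all had log2 ratios below 0 with TMM, and RNF13 and RNF130 lay above 0 with plain library size. RNF128, also called GRAIL and known for holding T cells unresponsive, led them. Its gene (LOC100515872) had 2509 brain and 16342 liver counts, or 71.8 and 757 scaled CPM, a 10.5-fold difference (10.1 to 11.0). Its liver counts were 32.9% of all liver counts of the 88 ligases. RNF149 had 28.6 CPM in brain against 93.2 in liver (-1.67), and RNF167, an endosomal and lysosomal ligase, had 35.7 and 93.8 (-1.37). Plain library size left this pair at -0.59 and -0.28. RNF130 was at 34.2 and 65.6 CPM (-0.92) and RNF13 at 32.8 and 58.6 (-0.82), which plain library size moved to 0.17 and 0.27. RNF133 had 7 brain counts and 0 in liver.

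Among 4 ligases known from antiviral responses, put side by side after their values were seen, RNF125 alone was called. RNF125, which marks the RNA sensor RIG-I for breakdown, had in its gene LOC100517591 55 brain and 398 liver counts, 1.57 and 18.4 scaled CPM. Its fold was 11.7 (8.82 to 15.8), and its call held with plain library size (-2.03). RNF135, an activating ligase of RIG-I, had 1.60 CPM in brain against 7.32 in liver, 4.57-fold (3.35 to 6.31) and -1.68 on the log2 scale. DTX3L, the partner of the ADP-ribosyltransferase PARP9, was at 2.49 and 12.9 CPM, 5.17-fold (4.05 to 6.66) and -1.99. Both exceeded 4-fold as plain CPM ratios and fell short of it once 1 was added to each CPM. With plain library size RNF135 lay at -0.83 and DTX3L at -1.07. The other is HERC6, given above. The macrophage markers were also higher in liver, and their part in these values was not tested.

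Further RING ligases lay on both sides of 0. LNX, which binds the cell fate protein NUMB, had in its gene LOC100523319 3501 brain and 321 liver counts, or 100.2 and 14.9 scaled CPM. It was 6.74-fold higher in brain (6.01 to 7.58). ZNRF1, known from nerve injury, had 5.98 CPM in brain against 1.30 in liver, a log2 ratio of 1.60, and 2.38 with plain library size. Its paralogue ZNRF2 was at 21.3 and 41.5 CPM, with a ratio of -0.93 that became 0.14 with plain library size. RNF182 had 45 brain counts and 0 in liver, 1.29 CPM in brain, which is at least 9.27-fold higher. The Praja ligases were well covered. Praja-2, which degrades regulatory subunits of protein kinase A, was at 32.1 and 27.7 CPM (0.21), and Praja-1 at 56.5 and 84.5 (-0.57, and 0.52 with plain library size). MIB2, which drives endocytosis of Notch ligands, was at 47.7 and 40.9 CPM, 1.17-fold higher in brain (1.07 to 1.27). SH3RF2 lay at 0.54 and the RNF220-like gene at 0.53. The row under the symbol RNF220, outside the set, had 528 brain and 29 liver counts, with a log2 ratio of 2.78.

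**Figure D3:**
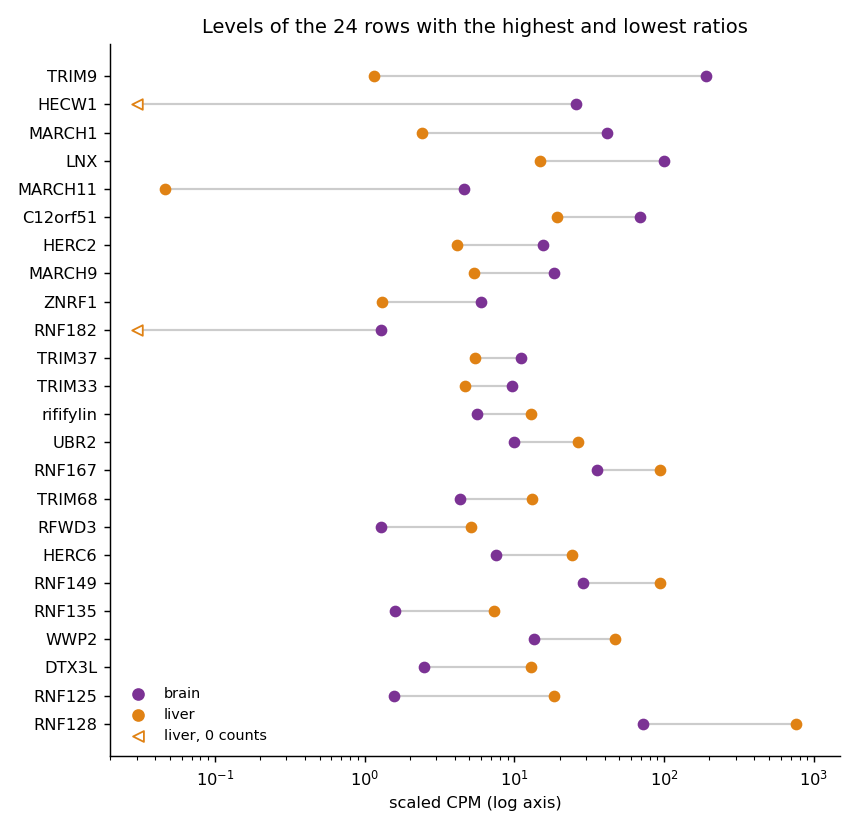
Scaled CPM on a log axis of the 12 ligases with the highest and the 12 with the lowest log2 ratios among those at 1 CPM or more, 1 library per tissue (purple brain, orange liver). Open triangles at the left edge stand for 0 liver counts and have no position on the axis. TRIM9 spans 1.16 to 191 CPM and RNF128 71.8 to 757 CPM, while TRIM33 and TRIM37 differ by about 2-fold.

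The next RING and U-box ligases are known from protein quality control, chromatin and DNA repair. CHIP, a U-box ligase of chaperone clients, had 5066 brain and 2434 liver counts, or 145 and 113 scaled CPM. Its fold was 1.29 toward brain (1.22 to 1.35). RING2, which ubiquitinates histone H2A in Polycomb complexes, was at 36.6 and 22.9 CPM (0.66), and RNF138, of DNA end resection, at 10.6 and 9.35 (0.16). BRE1B, which with BRE1A ubiquitinates histone H2B, was at 60.4 and 73.9 CPM (-0.29). A pair of BRE1A-like genes gave 0.17 and -0.61. FANCL, the ligase of the Fanconi anaemia complex, was at 9.24 and 14.3 CPM (-0.58). BRE1B, the lower BRE1A-like gene and FANCL lay above 0 with plain library size, at 0.81, 0.26 and 0.44. RFWD3, a ligase of DNA crosslink repair, was at 1.29 brain and 5.09 liver CPM, 3.96-fold (2.77 to 5.73) and -1.41 on the log2 scale. Plain library size left it at -0.63.

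RNF103, a ligase of the endoplasmic reticulum, had 64.2 CPM in brain against 100.9 in liver, a log2 ratio of -0.65 that became 0.45 with plain library size. The 2 N-recognin genes of the set, like UBR1 and UBR2, which read destabilising ends of proteins, lay on opposite sides of 0. UBR1 was at 14.7 and 9.77 CPM (0.54), and UBR2 at 9.93 and 26.4 (-1.33, and -0.28 with plain library size), a 2.66-fold difference (2.32 to 3.05). The better covered rows under the symbols, outside the set, did not split and lay near 0 with TMM. UBR1 had 1430 brain and 814 liver counts there (0.115), and UBR2 1130 and 681 (0.035).

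All but 1 of the remaining ligases at 1 CPM or more lay within 2-fold on the pseudocount scale. SIAH1 (0.38) and the better covered of 2 RNF115-like genes (0.76) were above 0. The second RNF115-like gene (-0.42), RNF25 (-0.22), TRAF7 (-0.38), Hakai (-0.56), a ligase of E-cadherin, and RFWD2 (-0.80), better known as COP1, were below 0 with TMM. These 5 were at 0.31, 0.72, 0.32, 0.35 and 0.03 with plain library size. The exception, rififylin, had 5.61 CPM in brain against 13.0 in liver (-1.08, and -0.09). The row under the symbol TRAF7, outside the set, had 30 brain and 92 liver counts (-1.50 with TMM). The other ligases under 1 CPM were those like CCNB1IP1, makorin-3, pellino homolog 1, NEURL1B, NEURL3, RLIM, RNF181, CBL-B and a second SIAH1-like gene, with at most 26 counts in either library. Several of these names had a better covered row outside the set, under the gene symbol or matched to it by gene number. Such rows had 909 brain and 270 liver counts for CCNB1IP1, 677 and 203 for PELI1 (pellino homolog 1), and 294 and 100 for NEURL1B. CBLB had 288 and 190 and RNF181 142 and 108, while RLIM had 2 and 4.

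Many ligase names occurred in more than 1 row of the table, and the rows did not always give the same ratio. Counting rows that carry the gene symbol or match it by gene number, 31 ligase names had at least 2 rows, and 10 of them had rows with consecutive gene numbers. For 19 names at least 2 rows reached 1 CPM. Their ratios differed by a median of 1.12 on the log2 scale, by under 1 for 7 names and by over 1 for 12, and for 7 names they had opposite signs with TMM. For 1 of these 7, UBR2, the signs were opposite with plain library size as well. The widest gap, 2.82, was between the 2 MARCH1-like genes. The rows named next were chosen after their values were seen.

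With TMM the rows of TRIM33 had opposite signs. Its TRIM33-like gene was 2.05-fold higher in brain (1.64 to 2.59), with 335 and 101 counts, while the row under the symbol TRIM33 was 1.99-fold higher in liver (1.55 to 2.55), with 119 and 146. With plain library size both rows lay above 0, at 1.85 and 0.10. The UBR2-like gene at -1.33 stood beside a UBR2 row of 1130 and 681 counts at 0.03, and the pair was at -0.28 and 1.11 with plain library size. The HECW2-like gene at 0.82 stood beside a HECW2 row of 1028 and 77 counts at 2.74, and the TRIM37-like gene at 0.91 beside a TRIM37 row of 5142 and 762 counts at 2.03. In contrast, Praja-2 (0.21 and 0.12), RFWD2 (-0.80 and -0.83) and SMURF2 (-0.68 and -0.63) gave nearly the same ratio in both rows. All 3 HECW1 rows had 0 liver counts, and together they had 1172 in brain. Why rows of 1 name differ was not tested.

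**Figure D4:**
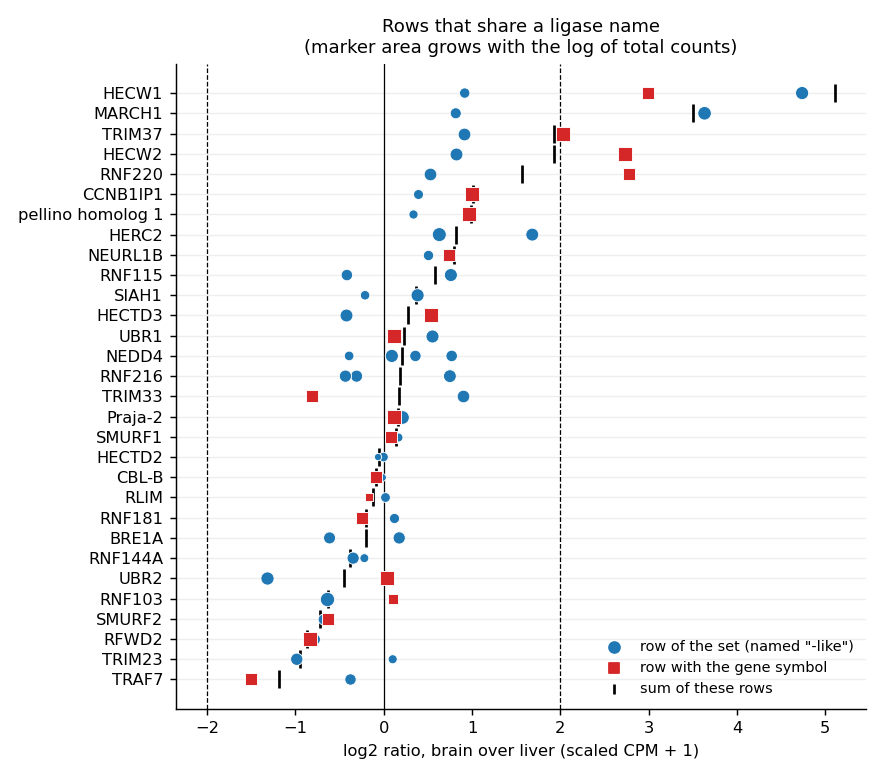
Log2 ratio of brain over liver for rows that share a ligase name, ordered from top to bottom by the ratio of their summed counts. Blue dots are the ligases of the set, red squares the rows with the gene symbol (or matched to it by gene number), black ticks the sum, and marker area grows with the log of total counts. With TMM, rows of TRIM33, UBR2 and RNF216 lie on both sides of 0, whereas those of Praja-2, RFWD2 and SMURF2 nearly coincide.

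Ligases outside the set filled in several families. In lists of ligase classes and roles, 141 other rows were found, of which 129 reached 1 CPM. Of these, 20 (15.5%) were called higher in brain and 9 (6.98%) in liver, against the same 14.6% and 11.3% of all genes. Of 7 date-named MARCH rows, 1 was called in brain (14.3%, near the 14.6% of all genes) and 0 in liver. Above 0 with each of the 4 scalings run lay 5 of the 7, against 50.1% of all genes. MARCH4, of the same subgroup as MARCH9 and MARCH11, had 1296 brain and 4 liver counts, a 200.2-fold difference (78.0 to 736). MARCH3 was at 1.34, MARCH5 at -0.19 (0.90 with plain library size) and MARCH7 at -1.14. In the list of neuronal and synaptic ligases 8 of 18 rows were called higher in brain (44.4%) and 1 in liver. RNF208 (4.63) and TRIM2 (4.40), a neuronal ligase of neurofilament light chain, were highest.

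The 1 neuronal-list row called higher in liver was LNX2, the paralogue of LNX. LNX2 had 61 brain and 1040 liver counts, 1.75 and 48.2 scaled CPM, so it was 27.6-fold higher in liver (21.3 to 36.3) while LNX was higher in brain. Such splits within a family recurred. RNF150, a PA-domain relative of RNF128, had 358 brain and 21 liver counts, a ratio of 10.5 toward brain (6.79 to 17.2). HERC3, beside HERC6 and HERC4, had 10646 brain and 466 liver counts, 14.1-fold higher in brain (12.9 to 15.5). In the innate immunity list, 2 of 9 rows at 1 CPM were called in each tissue (22.2%, against 14.6% of all genes in brain and 11.3% in liver). PELI2 (2.07) and PELI3 (2.06) were in brain, TRIM25 (-4.18) and RNF114 (-2.31), a relative of RNF125, in liver. With plain library size RNF114 was at -1.30. The endoplasmic reticulum list had 1 of 6 rows at 1 CPM called, RNFT1 in liver (16.7%, against 11.3% of all genes), at -2.04, and -1.08 with plain library size, and MARCH6 was at 0.07.

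The steps before the ligase are carried by E1 and E2 enzymes, and cullins serve as scaffolds of multi-subunit ligases. With TMM no row of the ubiquitin genes, of the 8 E1 genes or of the 13 cullin scaffold rows at 1 CPM was called in either tissue, against 14.6% of all genes in brain and 11.3% in liver. With plain library size 2 E1 rows (UBA1 at 2.08 and SAE1 at 2.04) and 1 cullin scaffold row (RNF7 at 2.52) were called in brain, against 24.2% of all genes. With TMM UBA1, the main E1, was at 0.98, SAE1 at 0.95, and UBA7, the E1 of the interferon-induced modifier ISG15, at -1.57. Of 30 E2 rows at 1 CPM, 1 was called in brain (3.33%) and 0 in liver, and 4 in brain with plain library size. The 1 row called with TMM, UBE2QL1, had 5553 brain and 6 liver counts, a 572-fold difference (263 to 1559). Next to it the list reached from UBE2V2 at 1.46 to UBE2F at -1.50 and UBE2C, the E2 of the anaphase-promoting complex, at -1.76. RNF7, a RING partner of cullins, was at 1.43 and ELOC at 0.91, while CUL4B was at -1.25. RPS27A, which encodes ubiquitin fused to a ribosomal protein, was at -0.53 (0.58 with plain library size).

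Substrate receptors bring targets to cullin ligases. Of 23 receptor rows at 1 CPM, 5 were called higher in brain (21.7%, against 14.6% of all genes) and 0 in liver (against 11.3%). With plain library size 7 were called in brain, against 24.2% of all genes. FBXO2, which binds glycoproteins with high-mannose sugars, had 1809 brain and 2 liver counts, a 559-fold difference with an interval from 155 to 4618. FBXW7, a receptor for cyclin E and MYC, had 21711 and 485 counts, 27.7-fold (25.3 to 30.3). The lowest were FBXO21 (-1.37) and SOCS2 (-1.33), which plain library size put at -0.28 and -0.32.

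**Figure D5:**
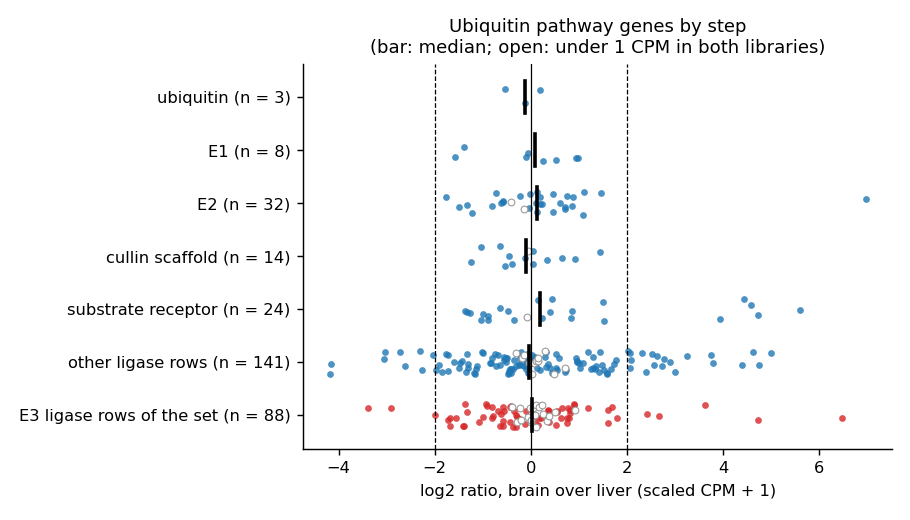
Log2 ratio of brain over liver for genes of the ubiquitin pathway, 1 dot per row of the table, with black bars at the medians and dashed lines at 4-fold (1 library per tissue, TMM scaling). Open dots are under 1 CPM in both libraries. The E1 and cullin rows stay between the dashed lines, UBE2QL1 is the single E2 beyond them, and the 88 ligases (red) centre near 0 with a few far out on either side.

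The ligases called in brain, and the 2 called in liver, had longer deposited lengths, by their medians, than those not called. The deposited length, read as the span on the genome, had a median of 161520 bp over the 5 genes called in brain, 51356 bp over the 2 called in liver and 25214 bp over the 62 called in neither tissue. Over all genes the medians were 35392, 17512 and 21197 bp, so those called in liver were shorter than those not called. Whether the length of each ligase covers a whole gene was not tested. Across the 69 ligases the rank correlation of span and log2 ratio was 0.21, beside 0.17 across 15706 genes, as a description in which all points share the same 2 libraries. Of the 88 ligases, 13 lie on scaffolds outside the chromosome sequences of the assembly, and 9 of these reached 1 CPM. None of them was called with TMM, against 14.6% of all genes in brain and 11.3% in liver.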

How the data were processed

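RNA of brain and liver from Rongchang pigs was sequenced, 1 library each. The authors deposited 1 table of raw counts per gene with a brain and a liver column. The unit was taken from the table itself: all values are whole and the column totals differ. The submitters' processing notes name TopHat, a read aligner, and the pig genome build Sscrofa10.2. The table gives no start or end positions, so none are printed. Which program counted reads, and with what strand setting, is not given in the sources used here, so overlapping genes and near-identical copies may share reads. Rows of 1 name were summed (21817 rows, 21653 names). Names of provisional loci were matched by gene number to a RefSeq gene table of Sscrofa11.1 (6592 matched, 47 of the 88 ligases), used for names alone. Scaling used TMM in edgeR 4.0.16 (R 4.3.3), with factors of 1.47 and 0.681. Fold intervals are exact conditional binomial. The call procedure was tested on simulated counts in which both tissues shared 1 profile apart from a small set of altered genes. The simulation held neither spread between animals nor the difference in composition of the real libraries. It therefore cannot show how well the calls hold here.

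The ligases, lists and settings were chosen with earlier results of these data known. Values are given for the 12 highest and 12 lowest log2 ratios, those nearest to 4-fold (3 per side inside and outside) and nearest to 0 (4 with 20 CPM or more in both libraries), and paralogues of these. From each list of E1, E2, cullin and receptor genes the 2 highest and 2 lowest were taken. A few genes that this rule or the lists hold are not reported here. Other ligases, list members and rows were named after their values were seen. A ranking of levels per coding length was foreseen and not run. Alternatives were 3 other scalings, pseudocounts of 0.1 and 5, no filter or 5 CPM, folds of 2 and 8, the highest row per name, and the set without products worded probable or putative. Summing ligases of 1 product name was added after the data were seen.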

Additional observations from a re-analysis of the deposited data

How the results depend on the processing

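The counts of called ligases, 5 in brain and 2 in liver, stayed within 1.5 times under median-of-ratios scaling, TMM without the 50 highest genes, the highest row per name, no filter, a filter at 5 CPM, without probable or putative products, and with ligases of 1 product name summed (an alternative chosen after seeing the data). Leaving out the filter could not change a call, since a 4-fold ratio after 1 is added already needs more than 1 CPM. The highest row per name left the counts of every ligase unchanged, as none had more than 1 row, and altered only the scaling factors. These 2 settings are therefore no check of the calls. Plain library size gave 9 in brain, against 24.2% of all genes, and kept 2 in liver, against 6.02%. The 9 were the 5 called with TMM and those like C12orf51, HERC2, MARCH9 and ZNRF1. A pseudocount of 0.1 gave 7 in brain and 4 in liver, and one of 5 gave 4 and 1. A 2-fold limit gave 10 and 12, against 27.6% and 24.4% of all genes, and an 8-fold limit 3 and 1, against 8.54% and 5.70%. The median log2 ratio of 0.025 was 0.540 with plain library size, 0.059 and 0.005 with pseudocounts of 0.1 and 5, and 0.079 without probable or putative products. Of 38 ligases named by the rule, 7 changed sign with plain library size and 0 under the other scalings, which moved ratios by at most 0.010. Pseudocounts cannot change a sign, and row choice could alter only the scaling factors, so neither checks the signs. No paired analysis was possible because there is 1 library per tissue, and no library could be left out. Depth limits the 12 ligases with under 10 counts in both libraries, whose ratios cannot be placed.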
